A study of Mus with 8 samples.

Results

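Among sorted Lin-Sca1+Kit+ (LSK) cells of newborn (P0) mice, cells carrying transcripts of both Procr and Mecom were taken as a group, here called Procr+Mecom+ cells. A cell entered with at least 7500 gene UMI (unique molecular identifiers, each standing for 1 captured RNA molecule), at most 10% mitochondrial UMI, and at least 1 UMI of each gene. The rule found 1801 cells among 5122 in the Ifnar+/- library and 2373 among 3471 in the Ifnar-/- library. Together these were 4174 of 8593 newborn LSK cells and of 35549 cells in the series. Because the rule reads Procr and Mecom, these genes are not results here, and every other difference between the chosen cells and the rest is a description of how the chosen cells look.

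Procr encodes the endothelial protein C receptor (CD201), a surface protein used to enrich mouse blood stem cells, and Mecom encodes a transcription factor (Evi1) required for long-term stem cell maintenance. In the mouse, blood stem cells sit within the LSK fraction, carry CD150 and lack CD48, and divide into multipotent progenitors that gain CD48. Type I interferon acts through a receptor of the chains Ifnar1 and Ifnar2, which signals through Jak1, Tyk2, Stat2 and Irf9, among others, and turns on a large group of antiviral genes.

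RNA and surface antibody tags were counted together in single cells (CITE-seq). The newborn LSK cells came from Ifnar+/- and Ifnar-/- mice, with 1 library for each genotype. Lin-Kit+ (LK) cells of newborn mice and LK and LSK cells of mice 14 days old (P14) were sorted from the same genotypes, giving 8 libraries. The labels write Ifnar without a number, describe no allele, name no organ, and do not say how many mice went into a library or whether LK and LSK cells came from the same mice; no wild-type mice were included among the labelled groups.

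With 1 library per group there is no replicate error within a group, and no test between genotypes, ages or cells was run. Intervals in parentheses are 95% limits that cover counting error only. They are exact, except that of the share difference, which is approximate (Newcombe's method). Libraries held 2411 to 5891 cells with 100486590 to 302507736 gene UMI, and shared 1 to 10 cell barcodes pairwise, with 6 shared between the newborn LSK libraries. Median gene UMI per cell was 28320 in Ifnar+/- and 35303 in Ifnar-/- Procr+Mecom+ cells, against 34454 and 39073 in the other cells. UMI of Y-linked genes without Xist marked 31.6% of the Ifnar+/- and 33.2% of the Ifnar-/- Procr+Mecom+ cells that carried transcripts of 1 sex only, so both libraries held cells of both sexes.

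The chosen cells carried the stem cell markers that the rule did not use. Hlf, a transcription factor of stem cells, was at 423 CPM (a gene's UMI scaled to a common total over the summed cells; 418–429) in Ifnar+/- Procr+Mecom+ cells and 193 CPM (191–196) in the other cells of that library, and at 553 and 333 CPM in the Ifnar-/- library. Hlf was thus 2.19-fold higher in 1 library and 1.66-fold higher in the other. Pdzk1ip1, whose regulatory elements are used to label dormant stem cells, was at 49.1 against 9.81 CPM and at 64.3 against 19 CPM. Meg3, a maternally expressed long noncoding RNA, was at 71.8 against 10.7 CPM and at 156 against 45.5 CPM. All 3 markers were higher in the chosen cells of both libraries, by 6.70-fold for Meg3 in Ifnar+/- and 3.42-fold in Ifnar-/-. In the RefSeq annotation of GRCm38.p6 these genes lie at chr2:155751125-155755478 (Procr), chr3:29951296-30509759 (Mecom), chr11:90336535-90390917 (Hlf), chr4:115088708-115093894 (Pdzk1ip1) and chr12:109540996-109571729 (Meg3, a noncoding gene).

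Many cells entered the rule by a single molecule. The median was 2 Procr UMI in both libraries and 3 Mecom UMI in Ifnar+/- against 7 in Ifnar-/-. A single Procr UMI carried 47.4% of the Ifnar+/- and 28.9% of the Ifnar-/- members. Just inside the rule, cells with 1 UMI of each gene numbered 213 and 56. Their Meg3 levels were 15.8 and 34.8 CPM, and their median CD48 tag was 5161 and 6654 per cell. Members with more than 1 UMI of both genes numbered 817 and 1617, with Meg3 at 107 and 177 CPM and a CD48 median of 1158 and 1298. Just outside it, 1464 and 732 cells had Mecom without Procr, with Meg3 at 19.1 and 63.1 CPM and CD48 at 5207.5 and 6048. The 323 and 96 cells with Procr without Mecom had Meg3 at 14.4 and 36.5 CPM and CD48 at 5376 and 6470.5. Cells at the edge of the rule therefore lay closer to cells just outside it than to members with more UMI. In both libraries their Meg3 was even below that of the cells with Mecom without Procr. The 2 markers together do not bound a uniform group.

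Background from free RNA was read in cells that should lack both genes. In the newborn LK libraries, cells with at least 10 UMI of both Klf1 and Car1 (red cell precursors) numbered 361 and 294, and 0.554% (0.0672–1.99) and 0.680% (0.0825–2.44) of them met the rule at median depths of 81884 and 65121 UMI. In LK cells with at least 10 UMI of Elane and of Mpo (neutrophil precursors) the shares were 0.457% and 0.104%. Free RNA in these LK libraries held Procr at 4.21 and 2.54 CPM and Mecom at 6.90 and 4.78 CPM, far below the LSK libraries, so these shares set no background for LSK cells. The newborn LSK libraries held only 14 and 12 such red cell precursors, of which 1 and 0 met the rule, with exact upper limits of 33.9% and 26.5%. RNA outside cells in the LSK libraries held Procr at 21.5 CPM in Ifnar+/- and 54.1 CPM in Ifnar-/-, and Mecom at 61.5 and 130 CPM, so free RNA moved with genotype in the same direction as the share below. Its part in that share was not tested.

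Procr+Mecom+ cells made up a larger share of the Ifnar-/- newborn LSK library. They were 35.2% of cells (33.9–36.5) in Ifnar+/- and 68.4% (66.8–69.9) in Ifnar-/-, a difference of 33.2 percentage points (31.2–35.2) and a 1.94-fold ratio. With every cell thinned to 7500 UMI, the shares were 11.1% (10.2–12) and 25.7% (24.2–27.2), 2.31-fold apart, so the ratio was no smaller at equal depth. Thinned, Procr was seen in 17.9% and 33.2% of cells and Mecom in 34.5% and 62.3%. The newborn LK pair went the other way, with 426 of 5891 cells (7.23%) in Ifnar+/- and 277 of 5767 (4.80%) in Ifnar-/-. At P14 the LSK shares were 31.2% and 36.7% and the LK shares 8.88% and 7.13%. In both ages the share was higher in Ifnar-/- among LSK cells and lower among LK cells, and the newborn LSK pair stood furthest apart.

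**Figure D1:**
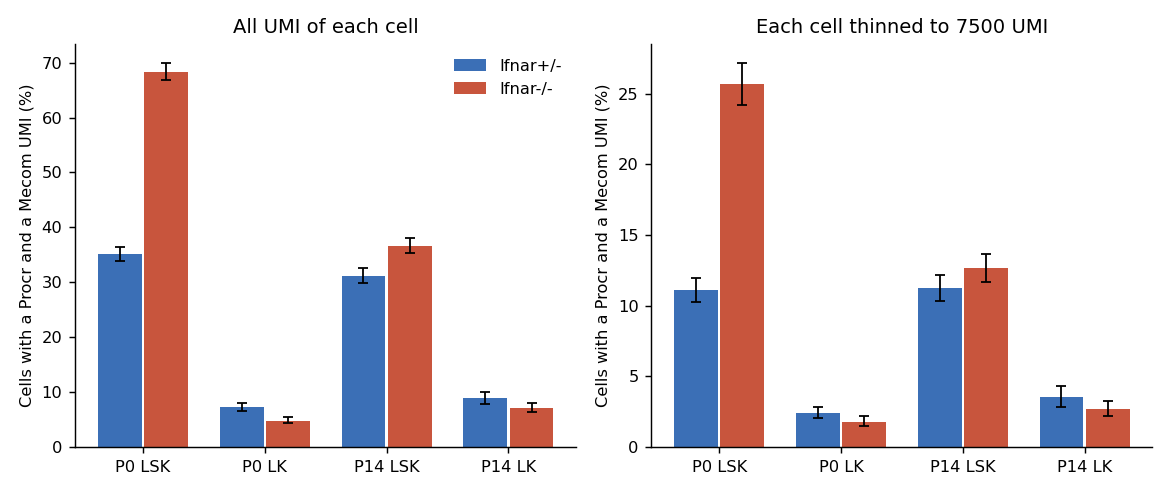
Share of cells with at least 1 UMI of Procr and of Mecom (y axis, percent) in the Ifnar+/- (blue) and Ifnar-/- (red) library of each age and fraction, with all UMI of a cell (left) and after thinning each cell to 7500 UMI (right, own scale). Error bars are exact 95% binomial intervals that cover counting error only. The newborn LSK pair stands at 35.2% and 68.4%, and at 11.1% and 25.7% after thinning.

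The LSK sort itself used Sca1, the product of Ly6a, an interferon-responsive gene. In Procr+Mecom+ cells Ly6a was at 107 CPM (104–109) in Ifnar+/- and 34.9 CPM (33.7–36.1) in Ifnar-/-, a fall of 1.61 on the log2 scale, and in the other cells it was at 61.2 and 22.8 CPM. Procr+Mecom+ cells of the newborn LK libraries had 81.8 and 22.2 CPM. A different reach of the Sca1 gate in the 2 genotypes and a different number of these cells in the mice cannot be told apart in this design.

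Of the antibody tags, which the rule did not use, CD201, CD150 and CD48 differed between the chosen and the other cells by the most. The CD201 tag, read from the protein product of Procr, had a median of 54 per cell (quartiles 28 and 99) in Ifnar+/- Procr+Mecom+ cells and 20 in the other cells, and of 132 (71 and 225) and 42 in Ifnar-/-. As a description, since the rule used Procr, the tag can be set beside the RNA. From members with 1 Procr UMI to members with 5 to 9, the median CD201 tag went from 40 to 121.5 for Ifnar+/- cells, and from 85 to 220.0 for Ifnar-/- cells. CD150, a stem cell surface protein, had medians of 36 against 17 and of 63 against 24. CD48, which marks progenitors past the stem cell, was lower in the chosen cells, at 2632 against 5203 and at 1873 against 6020.5. The quartiles of CD48 in the chosen cells were spread from 504 to 5650 for Ifnar+/- cells, and from 493 to 5568 for Ifnar-/- cells, so cells with little and with much CD48 both met the rule. CD34 and CD135 were lower in the chosen cells by tag count, with ratios of 0.674 and 0.743 for CD34 and of 0.686 and 0.844 for CD135. The chosen cells had fewer tags in all, a median of 4506 against 6986 per cell in Ifnar+/- and 4350 against 8291 in Ifnar-/-. CD48 made up most of the tags, at 63.2% against 74.4% in Ifnar+/- and 59.4% against 71.7% in Ifnar-/-. A lower CD48 part raises the shares of the other tags even at level counts. As a share of all tags CD34 was at 3.65% against 3.74% in Ifnar+/-, but higher at 4.45% against 3.68% in Ifnar-/-. The CD135 share was at 0.575% against 0.608% and at 0.573% against 0.653%. By tag count CD117, CD16/32, CD41 and CD127 had ratios between 0.909 and 1.17. Their shares of all tags went in different directions. The CD117 share was higher in the chosen cells, at 13.6% against 10.5% and 18.2% against 13.2%, though its count ratios were 0.947 and 0.949. That of CD41 was lower, at 0.349% against 0.367% and 0.365% against 0.404%. The SA_PE tag, whose target is not stated, had count ratios of 1.38 and 1.11 and is not interpreted.

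Between genotypes, the median CD201 tag of the chosen cells was 2.44-fold higher in Ifnar-/-, and 2.16-fold higher as a share of all tags. The other cells of the same libraries were also 2.10-fold apart in the same direction. CD150 was 1.75-fold and CD117 (Kit) 1.498-fold higher in Ifnar-/- members, and CD16/32 was at 66 against 48 tags. The other cells had ratios of 1.41 for CD150, 1.495 for CD117 and 0.767 for CD16/32, so these differences ran through both libraries. CD48 was 1.41-fold lower by tag count, but its ratio was 0.941 as a share of all tags. In the newborn LK members CD201 was at 41 and 52, and in the P14 LSK members at 48 and 67, so the genotypes lay closer in those pairs.

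**Figure D2:**
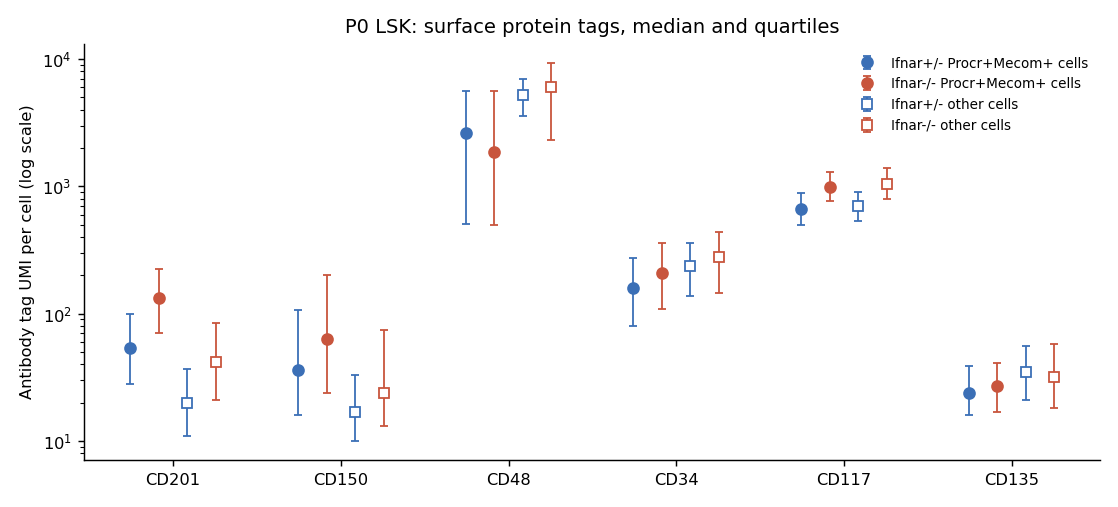
Antibody tag UMI per cell (y axis, log scale) for 6 surface proteins in the newborn LSK libraries. Points are medians and bars the quartiles over cells, filled for Procr+Mecom+ cells and open for other cells, blue for Ifnar+/- and red for Ifnar-/-. CD201 medians are 54 and 132 in the chosen cells against 20 and 42 in the rest, and the CD48 bars of the chosen cells span from 493 to 5650.

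Across 12881 genes with at least 50 UMI in 1 of the sums compared in each library, 376 (2.92%) were at least 2-fold higher in Procr+Mecom+ than in other cells in both libraries and 188 (1.46%) at least 2-fold lower. The median log2 ratio of all genes was 0.12 in Ifnar+/- and 0.13 in Ifnar-/-. Other scalings shift all ratios by up to 0.15, and the counts then become 273 higher and 219 lower with TMM factors and 269 and 221 with median-of-ratios factors. The calls near the 2-fold line depend on this shift.

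Among stem cell transcription factors, 4 of 19 compared were at least 2-fold higher and 1 lower, with medians of 0.59 and 0.58 in the 2 libraries. Mllt3, a factor that maintains stem cell self-renewal in culture, was at 120 against 33.7 CPM in Ifnar+/- and at 172 against 60.8 CPM in Ifnar-/-. Hoxb5, whose reporter marks long-term stem cells, was at 5.18 against 1.07 CPM and at 7.45 against 2.35 CPM. Nkx2-3, a homeobox factor, was at 75.5 against 22.97 CPM and at 108 against 45.4 CPM. Tcf15, linked to stem cell quiescence, was the fourth, 3.50-fold and 2.70-fold higher. Broadly used factors were less far apart: Meis1 was 1.58-fold and 1.51-fold higher and Hoxa9 1.32-fold and 1.23-fold. Gfi1b, a factor of red cell and platelet lineages, was the lower one, at 5.88 against 13.1 CPM and at 3.81 against 17.2 CPM.

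Of 25 stem cell surface and niche genes, 5 were at least 2-fold higher and 0 lower. Esam, an adhesion molecule of endothelium and stem cells, was at 44.2 against 12.99 CPM in Ifnar+/- and at 62.5 against 23.6 CPM in Ifnar-/-. Vwf, the clotting protein that marks platelet-biased stem cells, was at 8.70 against 2.87 CPM and at 11.7 against 3.91 CPM. Neo1, a netrin receptor, Ctnnal1, a catenin relative used as a stem cell reporter locus, and Tek, the angiopoietin receptor, were the others, Tek by 2.61-fold and 2.11-fold, which falls under 2-fold with both other scalings. Slamf1, the gene of CD150, was 1.81-fold and 2.03-fold higher. Kit was nearly level, at 1.17-fold and 1.04-fold.

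Imprinted genes, which are expressed from 1 parental copy and restrain or promote growth, were read as a list. Of 18 compared, 6 were at least 2-fold higher (Cdkn1c, H19, Igf2, Meg3, Plagl1 and Rian) and 1 lower (Mest). Under each of the 3 scalings run, 16 of 18 were above 0 in both libraries. Of all 12881 genes, 8771 in Ifnar+/- and 8689 in Ifnar-/- were above 0 with CPM, each library on its own. The count in both libraries at once was not taken over all genes, nor that with the other scalings. H19, a growth-restraining RNA, was at 40.3 against 8.06 CPM in Ifnar+/- and at 88.3 against 24.2 CPM in Ifnar-/-. Igf2, the growth factor from the same locus, was at 3.71 against 0.408 CPM and at 8.10 against 1.45 CPM, that is 9.03-fold and 5.53-fold higher. Rian, transcribed from the same cluster as Meg3, was at 9.36 against 1.52 CPM and at 19.6 against 5.66 CPM. Cdkn1c, the cell cycle inhibitor p57, was at 69.6 against 23.9 CPM and at 98.7 against 46.5 CPM, and dropped under 2-fold in 1 library with the other scalings. Igf2, expressed from the paternal copy, and H19, from the maternal copy of the same locus, were both higher.

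The 12 genes furthest above the other cells by the smaller of the 2 ratios, chosen by a rule, were Cpne8, Pdgfc, Ccn3, Lbhd2, Gbp8, Igf2, Inhba, Clip3, Pde3a, Igf1, Mmp16 and Cyp26b1. Pdgfc, a platelet-derived growth factor, was at 5.74 against 0.533 CPM in Ifnar+/- and at 10.2 against 1.54 CPM in Ifnar-/-. Ccn3 (Nov), a matrix protein linked to stem cell self-renewal, was at 6.14 against 0.367 CPM and at 10.7 against 1.80 CPM. Igf1, insulin-like growth factor 1, was at 12.8 against 1.98 CPM and at 26.1 against 5.47 CPM. Inhba, the activin subunit, was 8.38-fold and 4.95-fold higher. Cyp26b1, an enzyme that breaks down retinoic acid and is known from dormant stem cells, was 5.36-fold and 4.49-fold higher. These genes were low in absolute terms, between 0.959 CPM for Pde3a and 12.8 CPM for Igf1 in Ifnar+/- members.

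Genes of committed lineages were lower in most lists, beside 2.92% higher and 1.46% lower of all genes. Of 5 megakaryocyte genes 0 were 2-fold apart, or 1 lower (Gp5) with the other scalings, which shows little beside those shares. Their median log2 ratios were -0.28 in Ifnar+/- and 0.28 in Ifnar-/-. Of 12 red cell genes, 7 were at least 2-fold lower and 0 higher, of 8 neutrophil genes 4 were lower and 1 higher, of 8 monocyte genes 5 lower and 0 higher, of 6 B cell genes 5 lower and 0 higher, and of 13 lymphoid-primed genes 5 lower and 1 higher. Klf1, the master factor of red cells, was at 1.83 against 9.56 CPM in Ifnar+/- and at 1.53 against 28.2 CPM in Ifnar-/-. Elane, neutrophil elastase, was at 0.401 against 8.93 CPM and at 0.637 against 74.4 CPM. Elane had a UMI in 1.11% of members and 2.44% of other cells in Ifnar+/- and in 1.85% and 2.19% in Ifnar-/-, so the gap in its level lay in few cells. Il7r, the interleukin-7 receptor of lymphoid progenitors, was at 1.59 against 15.04 CPM and at 0.201 against 6.16 CPM. Ighm, the immunoglobulin heavy chain, was at 22.2 against 95.03 CPM and at 6.46 against 37.8 CPM. Ltb, lymphotoxin beta, went the other way, at 151 against 53.5 CPM and at 177 against 76.6 CPM. Flt3, the receptor of lymphoid-primed progenitors, was barely apart, at 109 against 133 CPM and at 116 against 129 CPM.

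The 12 genes furthest below the other cells included Ly6c2, Slc30a10, Ltbp1, Cox6a2, Tcrg-C1, Slc25a21, Ly86, Kel and Mt2, beside Elane and Il7r. Mt2, a metallothionein, was at 7.69 against 73.0 CPM in Ifnar+/- and at 10.5 against 300.1 CPM in Ifnar-/-. The shares of cells with an Mt2 UMI were less far apart, at 3.05% against 5.24% and at 6.15% against 12.2%. Tcrg-C1, a T cell receptor gamma constant gene, was at 0.436 against 5.92 CPM and at 0.424 against 17.8 CPM. Ly6c2, Slc30a10, Ltbp1, Cox6a2 and Ly86 had 3 UMI or fewer in the members of 1 library. Ly86, a partner of the receptor Cd180, had 54 UMI in Ifnar+/- members but 1 UMI in Ifnar-/- members against 159 in the other cells, a ratio of 304 with a counting interval of 53.8 to 12093. Ltbp1, a binding protein of latent TGF beta, had 3 UMI in Ifnar+/- members against 135, a ratio of 21.5 (7.20–105.6).

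Globin went in 2 directions. Hbb-bt, a beta globin gene, was at 1444 against 525 CPM in Ifnar+/- and at 2139 against 1126 CPM in Ifnar-/-, higher in the chosen cells. Hba-a1, an alpha globin gene, was at 0.959 against 4.52 CPM and at 1.52 against 7.74 CPM, lower in them. RNA outside cells held Hbb-bt at 849 and 1818 CPM and Hba-a1 at 9.29 and 27.0 CPM. The beta globin genes are near-identical copies, so the split of their reads between them is uncertain.

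**Figure D3:**
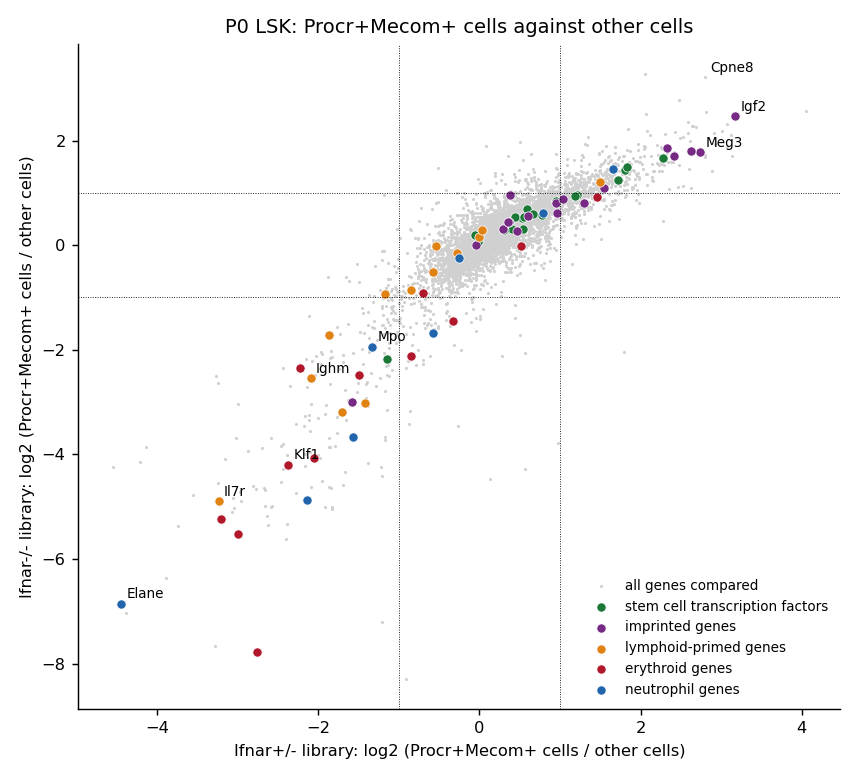
Log2 ratio of Procr+Mecom+ to other cells for 12881 genes, Ifnar+/- library on the x axis and Ifnar-/- library on the y axis, 1 point per gene. Coloured points are the listed gene groups and dotted lines mark 2-fold. Imprinted genes such as Igf2 and Meg3 lie to the upper right, and Elane, Il7r, Klf1, Mpo and Ighm to the lower left.

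Markers of other cell types were read in the same cells. The summed level of 10 endothelial genes was 24.4 CPM in Ifnar+/- and 34.5 CPM in Ifnar-/- members against 12.2 and 21.9 CPM in the other cells, with Sox18 the highest in each. Of 6 compared, Cldn5 and Sox18 were at least 2-fold higher in the members, Sox18 under 2-fold with both other scalings, and Lyve1 was lower. Sums were 16.0 and 14.3 CPM for 10 hepatocyte genes, 1.43 and 2.30 CPM for 8 stromal genes (3 at 0 in each) and 2.999 and 0.715 CPM for 8 macrophage genes. The part of the endothelial level in the results was not tested. Stromal and macrophage transcripts were few in the chosen cells.

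Within Procr+Mecom+ cells the clearest difference between genotypes was in interferon-induced genes. Across 13263 genes, 190 (1.43%) lay lower by 2-fold or more in the Ifnar-/- library and 102 (0.769%) lay as far above, and the median log2 ratio of all genes was 0.10. TMM factors gave 202 lower and 70 higher, and median-of-ratios factors 202 and 67, with the all-gene median then near 0. The order of these counts was reversed at 1.5-fold, with 292 lower and 706 higher, and with a minimum of 10 UMI, with 331 and 481. Of 63 interferon-induced genes compared, 50 were at least 2-fold lower in Ifnar-/-, 0 were higher, and all 63 were below 0 under the 3 scalings. Their median log2 ratio was -1.62, a 3.07-fold difference, and was the same with Oas1g, the 1 gene at 0 UMI, set at its floor of 3 counts. In the other cells of the same libraries 254 of 13139 genes (1.93%) were lower and 333 (2.53%) higher by the same measure, and the interferon list had a median of -1.75, so the chosen cells and the rest showed a difference of like size.

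The genes of the receptor chains did not show the genotype in their own RNA. Ifnar1 (chr16:91485032-91510523 in GRCm38.p6) was at 31.96 CPM (30.5–33.5) in Ifnar+/- and 30.6 CPM (29.4–31.7) in Ifnar-/- members, and Ifnar2 at 90.7 and 87.9 CPM. The labels do not say which of these genes, or which part of it, was altered. These 3' counts thus neither check the labels nor speak of the receptor. Downstream, Jak1 and Tyk2, the receptor's kinases, were nearly level (143.5 against 150.5 CPM, and 14.7 against 15.2 CPM). Stat2 was at 13.9 and 8.42 CPM and Irf9 at 55.7 and 11.6 CPM, so both transcription factors were lower in Ifnar-/-, Stat2 by less than 2-fold. Irf7, which amplifies the response, was at 84.5 and 2.85 CPM. Usp18, the inhibitor that binds the receptor, had 928 and 6 UMI. Socs3, an inhibitor of cytokine signalling, was the exception, at 4.64 CPM in Ifnar+/- and 9.95 CPM in Ifnar-/-, a difference that falls under 2-fold with median-of-ratios factors.

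Antiviral genes differed by the most among the listed genes. Ifi44 had 2772 UMI (48.3 CPM) in Ifnar+/- members and 16 UMI (0.179 CPM) in Ifnar-/- members. Rtp4, a chaperone of receptors, was at 128 CPM (125–131) and 1.23 CPM (1.01–1.48), 104-fold apart. Isg15, a ubiquitin-like protein, was at 124 and 3.76 CPM, and Ifi27 at 171 and 6.20 CPM. Oas2 and Oasl1, of the family that senses double-stranded RNA, had 911 against 4 UMI and 1195 against 19 UMI. Oas1g had 301 UMI in Ifnar+/- and none in Ifnar-/- members, at least 157-fold lower against 3 counts. Ifit3b had 110 UMI and 1 UMI, a ratio of 172 (30.2–6843). Abundant genes of the list differed less, with Ifitm3 at 1458 and 569 CPM, Bst2 at 288 and 96.3 CPM, and Ly6e at 326 and 240.2 CPM.

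The 8 lower genes furthest apart outside the interferon and MHC lists were mostly of the Ifi20x family of DNA sensors and the apolipoprotein L family. They were Ifi213 (309 and 1 UMI, a ratio of 482 with an interval of 85.9 to 19112), Ifi206 (702 and 8 UMI), Ifi204 (77 and 2 UMI), Ifi208 (121 and 6 UMI), Ifi214 (51 and 0 UMI), Apol9a (51 and 0 UMI), Apol9b (75 and 0 UMI, at least 39-fold lower) and Ly86 (54 and 1 UMI). Members of the Ifi20x, Apol9, Oas and Ifit families have near-identical copies, so how reads fell between copies is uncertain. Of all 190 lower genes, 57 were in the interferon, MHC or signalling lists and 133 were in none.

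**Figure D4:**
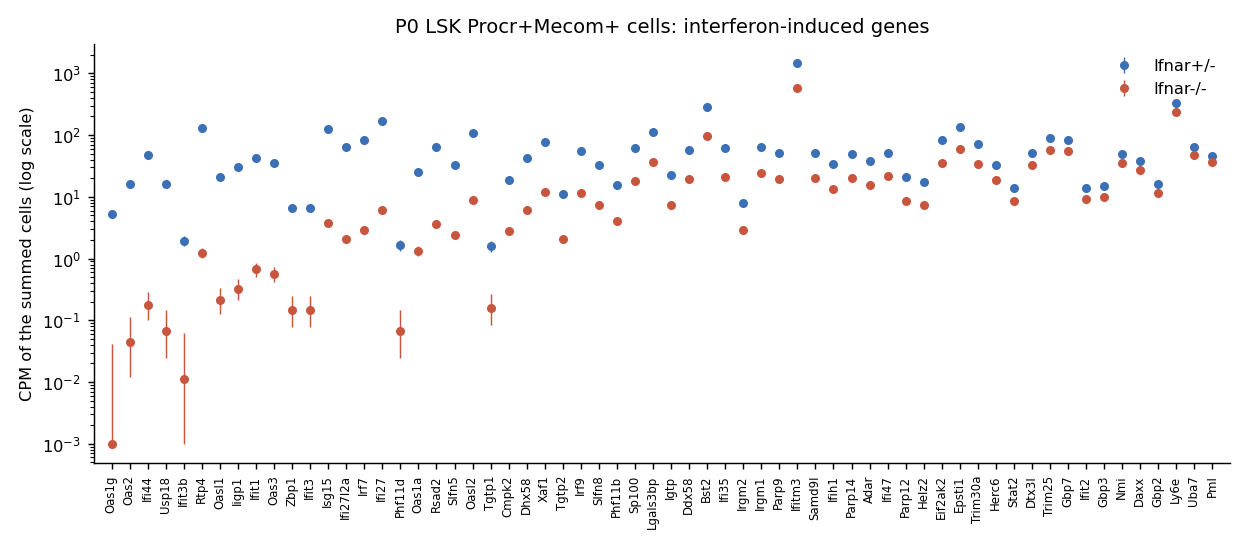
Level of 62 of the 63 interferon-induced genes compared (y axis, CPM of the summed cells, log scale) in newborn LSK Procr+Mecom+ cells of the Ifnar+/- (blue) and Ifnar-/- (red) library, ordered by the ratio. Bars are exact 95% Poisson intervals; Oas1g had 0 UMI in Ifnar-/- and is drawn at the lower edge. Every gene drawn has its red point below its blue one, from Oas1g at the left to genes under 2-fold apart at the right.

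The interferon level was lower in most Ifnar-/- members when cells were read one by one. In cells thinned to 7500 UMI, the summed list had a median of 36 UMI (quartiles 29 and 47) in Ifnar+/- and 13 UMI (10 and 16) in Ifnar-/- members. At least 20 such UMI were found in 95% of Ifnar+/- and 9.69% of Ifnar-/- members. The other cells had medians of 30 and 10 UMI, somewhat below the chosen cells in both genotypes. Between members and other cells, 0 of 52 list genes compared were 2-fold apart in both libraries, which shows little beside the 2.92% higher and 1.46% lower of all genes, and 45 of 52 were above 0 in both, or 41 of 52 with the other scalings. With CPM most genes leaned the same way, with 8771 and 8689 of all 12881 above 0 in each library on its own. Genes above 0 in both libraries at once were not counted over all genes, nor with the other scalings.

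Genes of antigen presentation by MHC class I were lower in Ifnar-/- members, 7 of 18 by at least 2-fold and 0 higher, with all 18 below 0. Of all genes 1.43% were lower and 0.769% higher by 2-fold or more. B2m, the shared light chain, was at 941 CPM (933–949) and 376 CPM (372–380). H2-K1 and H2-D1, the classical heavy chains, were at 499 and 166 CPM and at 443 and 153 CPM. Tap1, the peptide transporter, was at 69.3 and 25.1 CPM, and Nlrc5, which switches these genes on, at 5.70 and 0.402 CPM. The regulator and its targets were therefore all lower in Ifnar-/-.

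Lymphoid, B cell and monocyte genes were also lower in Ifnar-/- members: 5 of 12 lymphoid-primed, 3 of 4 B cell and 5 of 7 monocyte genes by at least 2-fold, with 0 higher in each list. Of all genes compared in the members, 1.43% were lower and 0.769% higher by this measure. Il7r was at 1.59 CPM (1.28–1.95) and 0.201 CPM (0.119–0.318), Ighm at 22.2 and 6.46 CPM, and Ccr9, a homing receptor of lymphoid progenitors, at 6.19 and 1.25 CPM. Of 8 neutrophil genes 2 were lower, Ctsg and Mpo, and 3 were above 0: Mpo, the neutrophil peroxidase, was at 181 and 56.7 CPM, and Elane at 0.401 and 0.637 CPM. Ms4a6c, a monocyte membrane gene, was at 38.1 and 11.2 CPM. Free RNA differed in the same direction, with Il7r at 11.3 and 3.03 CPM, Ighm at 75.7 and 18.9 CPM, and Mpo at 360 and 165 CPM. In the other cells 4 of 14 lymphoid-primed, 5 of 8 monocyte and 0 of 6 B cell genes were lower, beside 1.93% of all genes. Of the B cell genes 5 of 6 were above 0, as were 9172 of all 13139 genes, so these B cell counts show little. The part of free RNA in these lower levels was not tested. In newborn LK members Ighm was at 10.9 and 17.7 CPM and Mpo at 269 and 289 CPM, without the lower level in Ifnar-/-. Il7r had 16 and 3 UMI there, a 2.83-fold ratio after scaling, and its counting interval of 0.809 to 15.1 includes no difference.

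Of 20 stem cell transcription factors 0 were 2-fold apart between the genotypes, beside the 0.769% higher and 1.43% lower of all genes, so this count shows little. Their median log2 ratio was 0.25 beside 0.10 over all genes, and 19 of 20 were above 0, or 16 with the other scalings. Of all 13263 genes 9483 were above 0 with CPM, so most genes leaned the same way in that scaling. With TMM and median-of-ratios factors the all-gene median was 0.0028 and -0.0029, so this lean does not stand beside the 16. Hlf was 1.31-fold and Mllt3 1.44-fold higher in Ifnar-/-, while Meis1 was at 160.0 and 186 CPM and Tcf15 at 6.14 and 6.19 CPM. Imprinted genes were further apart. Of 18, 5 were at least 2-fold higher in Ifnar-/- (H19, Igf2, Meg3, Peg10 and Rian) and 0 lower, which became 3 (H19, Igf2 and Meg3) with both other scalings. Meg3 was at 71.8 CPM (69.7–74.1) in Ifnar+/- and 156 CPM (153–159) in Ifnar-/-, H19 at 40.3 and 88.3 CPM, and Igf2 at 3.71 and 8.10 CPM. Igf1 was at 12.8 and 26.1 CPM. Among members with more than 1 UMI of both Procr and Mecom, Meg3 was at 107 and 177 CPM, less than 2-fold apart, while members with 1 Procr UMI made up 47.4% in Ifnar+/- and 28.9% in Ifnar-/-. In the other cells the Meg3 ratio was larger, 2.09 on the log2 scale against 1.12 in the members. In LK members of the same age it was 0.28.

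The 12 genes furthest above in Ifnar-/- members were Tph1, Cstdc5, Tc2n, Gldc, Stfa1, Zfp960, Ptprn2, S100a9, S100a8, Slc24a1, Nudt11 and Olfr57, and the highest count among them was 96 UMI. Tph1, the enzyme that starts serotonin synthesis, had 3 UMI in Ifnar+/- and 96 in Ifnar-/- members, the latter in 0.379% of cells. The shares of Ifnar-/- members with a UMI were 1.01% for S100a8, 0.885% for S100a9, 0.843% for Cstdc5 and 0.674% for Tc2n, and reached 2.99% for Nudt11, so these counts rest on few cells. S100a8 and S100a9, the calprotectin subunits of neutrophils, had 12 and 61 UMI and 15 and 76 UMI. Stfa1 and Cstdc5, stefin-type protease inhibitors with several near-identical copies, had 13 and 89 UMI and 4 and 67 UMI. Free RNA held S100a8 at 2.55 CPM in the Ifnar+/- and 32.1 CPM in the Ifnar-/- library, Stfa1 at 1.82 and 26.7 CPM, and Tph1 at 0.910 and 11.2 CPM. These levels moved with genotype as those of the members did, where S100a8 was at 0.209 and 0.681 CPM. The other cells of the Ifnar-/- library had S100a8 at 13.8 CPM, Stfa1 at 29.3 CPM and Tph1 at 16.5 CPM. In LK members S100a8 was lower in Ifnar-/-, at 68.9 and 19.9 CPM. The part of free RNA and of the other cells in these counts was not tested.

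The share of cells with cell division transcripts was read in each genotype. With cells thinned to 7500 UMI, at least 3 UMI of 20 G2M genes were found in 58.4% (56.1–60.7) of Ifnar+/- and 58.4% (56.4–60.4) of Ifnar-/- members. The other cells had 70.3% (68.8–71.9) and 68.4% (65.6–71.1), so the share was lower in the chosen cells of each library at equal depth. Without thinning the members had 84.7% and 89.8% and the other cells 89.8% and 90.7%. In levels summed over cells, the 20 G2M genes had median log2 ratios of members to other cells of -0.0075 and -0.04 and 9 of 20 above 0 in each library. In both libraries at once 7 were above and 9 below 0, or 2 above and 15 below with both other scalings. All 20 G1S genes were below 0 in both libraries under the 3 scalings, with CPM medians of -0.26 in each. Of all 12881 genes 4110 and 4192 were below 0 with CPM, each library on its own. Egr1, an immediate early gene linked to stem cell quiescence, was at 70.1 CPM in Ifnar+/- and 116 CPM in Ifnar-/- members, and at 30.1 and 53.5 CPM in the other cells; its 2-fold call against the other cells is lost with both other scalings.

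The chosen cells ran along a gradient of the CD48 tag. The split of the members into CD48 quartiles was made after their values had been seen, and depth moves along it, from a median of 20287 to 42855 UMI per cell in Ifnar+/- and from 27216 to 47384 in Ifnar-/-. Median CD48 went from 208 in the lowest to 7351 in the highest quartile of Ifnar+/- and from 230.5 to 8466 in Ifnar-/-. Across the same quartiles CD150 went from 84 to 31.5 and from 172 to 40, CD201 from 91 to 33.5 and from 218.5 to 69, and CD34 in the opposite direction, from 59 to 298 and from 82 to 392. Cells with low CD48 thus had the most CD150 and CD201.

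Gene levels followed the gradient in both libraries. Of 10866 genes, 484 (4.45%) were at least 2-fold higher in the lowest than in the highest CD48 quartile in both libraries and 138 (1.27%) lower. The median log2 ratio of all genes was 0.18 in Ifnar+/- and 0.15 in Ifnar-/-. Only CPM was used here, so how these counts and the list counts shift with other scalings was not tested. Meg3 went from 219 to 17.4 CPM for Ifnar+/- cells, and from 332 to 53.5 CPM for Ifnar-/- cells. Igf2 went from 15.5 to 0.373 CPM and from 29.2 to 1.03 CPM, and Vwf from 32.7 to 2.004 CPM and from 33.8 to 2.91 CPM. Mllt3 went from 296 to 50.1 CPM and from 339 to 74.4 CPM. By list, 6 of 19 stem cell transcription factors were at least 2-fold higher at low CD48 and 1 lower (Gfi1b), 8 of 24 surface genes higher and 1 lower (Vldlr), and 8 of 16 imprinted genes higher and 0 lower. Of 10 lymphoid-primed genes 5 were lower and 1 higher (Ltb), and of 20 G2M genes 6 were lower and 0 higher. The share of cells with at least 3 G2M UMI rose in order over the quartiles, as 34.6%, 49.3%, 62.2% and 87.6% in Ifnar+/- and 41.4%, 50.8%, 60.7% and 80.6% in Ifnar-/-. Cdk6, a kinase that drives exit from quiescence, went from 75.2 to 221 CPM and from 76.3 to 159 CPM.

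The interferon difference was present in each CD48 quartile. Quartiles were cut within each library, so CD48 was not matched between genotypes, with medians of 4146.5 and 3390 in quartile 3. The summed list went from 6166 to 4165 CPM over the quartiles in Ifnar+/- and from 2019 to 1478 CPM in Ifnar-/-. The log2 ratio of Ifi27 was -5.22, -4.87, -4.53 and -4.77 from the lowest to the highest quartile, and that of B2m -1.61, -1.43, -1.29 and -1.12. Meg3 ran the other way, with 0.60, 1.30, 1.36 and 1.62, so the genotypes were closest in Meg3 where its level was highest.

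**Figure D5:**
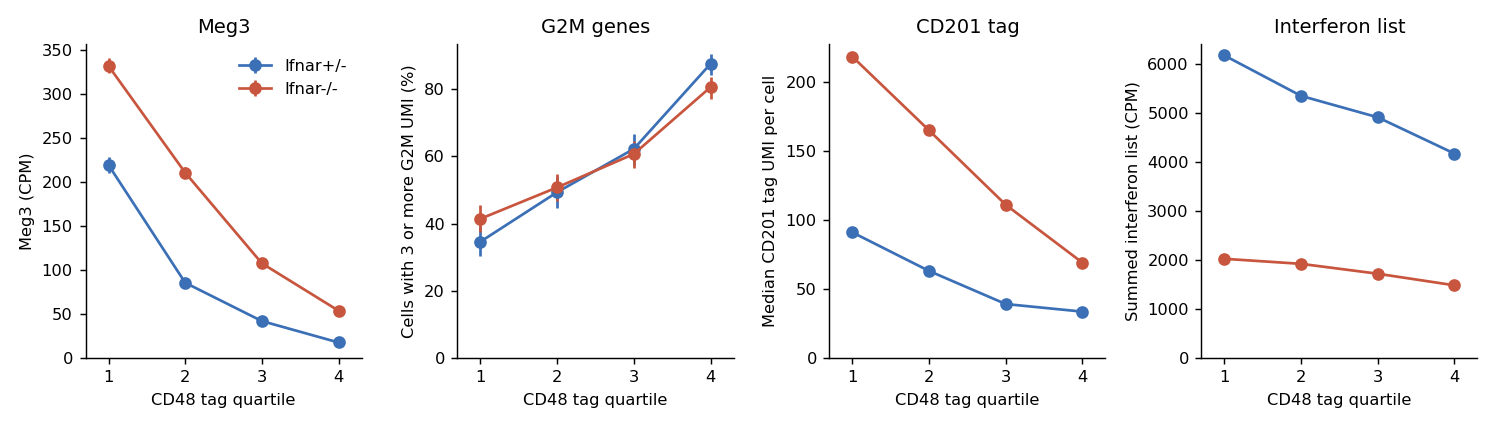
Newborn LSK Procr+Mecom+ cells split into quartiles of the CD48 tag (x axis, 1 lowest) in Ifnar+/- (blue) and Ifnar-/- (red), with the Meg3 level in CPM, the percent of cells with 3 or more G2M UMI after thinning, the median CD201 tag per cell and the summed interferon list in CPM. Bars are exact 95% counting intervals where given. Meg3 runs from 219 to 17.4 and from 332 to 53.5 CPM while the G2M share runs from 34.6% to 87.6% and from 41.4% to 80.6%.

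Cells that met the rule in the newborn LK libraries (426 and 277) and in the P14 LSK libraries (1439 and 1609) were compared between genotypes in the same way. In the LK cells 121 of 10378 genes (1.17%) lay lower by 2-fold or more and 6 (0.0578%) higher in Ifnar-/-, and in the P14 cells 52 of 12218 (0.426%) lower and 7 (0.0573%) higher. Of the 190 genes lower in newborn LSK members, 86 were also lower in LK members, which is 45.3% of the 190 and 71.1% of the 121; 115 of the 190 could be compared there. With P14 members 48 were shared, 25.3% of the 190 and 92.3% of the 52, and 149 of the 190 could be compared there. Of the 102 higher genes, 11 could be compared in LK and 22 in P14 members, and 1 and 0 were shared.

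The interferon list had a median log2 ratio of -1.82 in LK members, with 50 of 60 genes at least 2-fold lower, and of -0.68 in P14 members, with 25 of 60. Isg15 was at 100.4 and 2.71 CPM in LK members and at 16.3 and 3.75 CPM in P14 members. The smaller P14 difference went with a lower level in Ifnar+/- members: their median was 19 list UMI per thinned cell at P14 against 36 at P0, while Ifnar-/- members had 14 and 13. B2m differed by -1.30 in LK and -1.03 in P14 members, close to its -1.32 in newborn LSK members. The difference between ages was not tested.

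Against P14 members of the same genotype, newborn LSK members had more fetal and imprinted RNA; these values use the same newborn libraries as the genotype comparison. Between ages 256 of 12472 genes (2.05%) were at least 2-fold lower at P14 in both genotypes and 182 (1.46%) higher. Of 10 fetal genes, 7 were lower at P14 (Arid3a, H19, Igf2, Igf2bp1, Igf2bp2, Lin28b and Plagl1) and 0 higher, and 8 of 16 imprinted genes were lower. Lin28b, the RNA-binding protein of fetal blood formation, was at 22.9 CPM at P0 and 8.84 CPM at P14 in Ifnar+/- and at 24.7 and 9.32 CPM in Ifnar-/-. H19 was at 40.3 CPM at P0 and 1.32 CPM at P14 in Ifnar+/-, and Meg3 at 71.8 and 16.4 CPM. Dntt, the lymphoid enzyme that adds bases to receptor genes, was at 0.0872 and 32.05 CPM in Ifnar+/- and at 0.0558 and 23.7 CPM in Ifnar-/-, the reverse. Hepatocyte transcripts also moved with age, with Ahsg, Alb, Apoa1 and Ttr lower at P14 among 6 compared, and their part in the result was not tested. Of 19 stem cell transcription factors 1 was lower at P14, Hoxb5, and 0 were higher, with medians of 0.01 in Ifnar+/- and -0.20 in Ifnar-/-. Of 25 surface genes 4 were lower (Fgd5, Jam3, Neo1 and Selp) and 1 higher (Vldlr). Hlf was at 606 CPM in Ifnar+/- and 564 CPM in Ifnar-/- at P14.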

How the data were processed

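Counts deposited by the authors were raw UMI per feature and barcode over 32285 genes and 10 antibody tags, with no cell filter. The matrices name Cell Ranger 4 per the file headers, while the submitters' processing notes name Cell Ranger 6.0.1 and mm10. The labels' protocols give 10x Genomics Chromium 3' libraries; the annotation release is not given in the sources used here. Scaled counts (CPM) were computed here from UMI summed over the cells of a group in a library, and log2 ratios after adding 0.5 counts to each sum, among genes with at least 50 UMI in 1 sum. Python 3.11.15, scipy 1.17.1, scanpy 1.11.5, R 4.3.3 and edgeR 4.0.16 (TMM factors only) were used, and the scripts were tested on simulated data.

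The members and gene lists were chosen with earlier results of these data known. Named genes were the 12 higher and 12 lower by log2 ratio in each comparison (for members against other cells, by the smaller ratio over both libraries) and 8 lower genes outside the interferon and MHC lists; every listed gene and tag was read. Procr, Mecom, sex and mitochondrial genes and symbols without a gene name were left out. The CD48 quartiles, free RNA levels and genes named for them were chosen after seeing the data.

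Doublets were kept. Scrublet's own threshold marked 0% and 0.288% of the newborn LSK cells and so did not work; leaving out the highest scores, at a rate set by cell number (4.10% and 2.78%), took 210 Ifnar+/- cells, 120 of them members, and 96 Ifnar-/- cells, 76 of them members. Free RNA was read from barcodes with at most 100 UMI. A list summed to 7500 UMI used cells thinned at random to that depth. Coordinates come from RefSeq GRCm38.p6, in which 55 of 56 looked-up symbols were found. Alternatives changed the depth, filters, rule, scaling, added counts, gene minimum, fold and weight of a cell, or took off 5% free RNA. The closing section gives their effect. Values of some listed genes are not reported here, though they count in their lists.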

Additional observations from a re-analysis of the deposited data

Results flagged for a closer look

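The genotype difference in the share of Procr+Mecom+ cells had opposite signs in the newborn fractions. It was 33.2 percentage points in LSK cells, higher in Ifnar-/-, and -2.43 points in LK cells, lower in Ifnar-/-. Thinned to 7500 UMI, the differences were 14.6 and -0.641 points. With 1 library on each side the difference between the fractions was not tested.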

How the results depend on the processing

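No paired analysis was possible because each group has 1 library and so no replicate number to share or leave out; members and other cells of a library were compared without a test, since the rule chose the members. Over 112 alternatives 74 values stayed within their limits and 38 moved; most are counts or shares, which have no sign to change. The cause was not tested unless the setting itself changes what is counted. The share difference of 33.2 points was 14.6 with the rule on thinned cells, 30.6 with at least 2 UMI of each gene, and 29.0 in cells with Xist and no Y-linked UMI. The 376 genes higher and 188 lower in members became 25 and 26 with 5 CPM added, 670 and 338 with a minimum of 10 UMI, 1161 and 589 without one, 1117 and 294 at 1.5-fold, and 140 and 66 with thinned cells, which leaves fewer UMI; at least 2 UMI of each gene gave 236 higher. The 102 genes higher and 190 lower in Ifnar-/- became 2 and 73 with 5 CPM added, 481 and 331 with a minimum of 10 UMI, 1367 and 1458 without one, 706 and 292 at 1.5-fold, and 34 and 99 in the lowest CD48 quartile; median-of-ratios factors gave 67 higher, and the rule on thinned cells 118 lower, 107 of them among the 190. With 5% free RNA taken off, 435 genes were higher and 196 lower in members. In Ifnar-/- 91 were then higher and 181 lower, 174 of the latter among the 190. Levels of single genes were not read in that setting. Equal weight per cell gave 299 and 206 in members, and 91 and 173 in Ifnar-/-. The interferon median stayed between -1.76 and -1.19, and the CD201 ratio between 2 and 2.55. The G2M shares of 58.4% in both genotypes became, for Ifnar+/- and Ifnar-/-, 61.8% and 61.4% at a limit of 5% mitochondrial UMI, 84.7% and 89.8% unthinned, 87.8% and 85.4% at 1 UMI, 47.1% and 48.3% at 6 UMI, and 45.6% and 46.2% with the rule on thinned cells; the Ifnar+/- share was 55.0% with at least 2 UMI of each gene and 55.8% without the highest Scrublet scores. The Xist, CD48 quartile and later thinned-rule settings were chosen after seeing the data. More genes were higher than lower in Ifnar-/- with a minimum of 10 UMI and at 1.5-fold, the reverse of the reported counts, and the order of the G2M shares changed between settings. Depth limits genes of a few UMI, whose ratios have wide intervals.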

Other observations

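The CD48 gradient had the same direction in cells that met the rule in the newborn LK and P14 LSK libraries; those of P14 LK were not split. The share with at least 3 G2M UMI went from 40.2% in the lowest to 84.9% in the highest CD48 quartile of newborn LK Ifnar+/- cells and from 41.4% to 94.2% of their Ifnar-/- counterparts. In P14 LSK cells the ends were 23.3% and 76.3% with Ifnar+/-, and 24.6% and 79.6% with Ifnar-/-. The quartiles hold 69 to 403 cells.

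Lists of other responses were read in newborn LSK Procr+Mecom+ cells. Between genotypes 0 of 12 p53 target genes, 0 of 14 hypoxia and glycolysis genes and 0 of 11 integrated stress genes were at least 2-fold apart, near the 0.769% higher and 1.43% lower of all genes. Among 15 cytokine receptors, Ghr, the growth hormone receptor, and Tek were at least 2-fold higher in the chosen than in the other cells of both libraries, Tek not with either other scaling, and Csf1r and Il7r were lower, beside 2.92% higher and 1.46% lower of all genes. From P0 to P14, Gp5 and Pf4 of 5 platelet-lineage genes were higher in both genotypes, beside 1.46% of all genes, and Cdkn1a of 11 p53 targets was lower, beside 2.05%.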
